A study of Mus musculus with 4 samples.

Results

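The genes described here code for proteins of the Usher complex and of the ankle links, the fine filaments at the base of the hair bundle. They were chosen by symbol from a list of 7 genes: *Ptprq*, *Gpr98* (now called *Adgrv1*), *Clrn1*, *Dfnb31* (now called *Whrn*), *Pdzd7*, *Ush1c* and *Ush1g*. Of these, 6 had a row among the 12814 genes of the expression table. *Dfnb31* was listed there under its newer symbol, *Whrn*, which is used below. *Ush1g*, which codes for the scaffold protein SANS, was not found by symbol or by Ensembl identifier and is not analysed here.

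Hair cells (HCs) turn movement into an electrical signal through a bundle of stereocilia, which are held together by extracellular links. During bundle development, ankle links join neighbouring stereocilia near their base, and their large cell surface proteins are anchored inside the cell by scaffold proteins that carry PDZ domains, which are modules that bind the ends of other proteins. Mutations in genes of this group cause Usher syndrome, which combines deafness with loss of vision, or deafness alone.

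Expression was recorded by RNA-seq from cells sorted out of the inner ears of newborn mice (strain C57BL/6, genotype *Atoh1/nGFP*). All groups carry this transgene, in which *Atoh1* regulatory sequence drives a nuclear green fluorescent protein, and no other genotype or treatment was compared. HCs were sorted as cells positive for the fluorescent protein and for CD326, an epithelial surface protein. Epithelial non-sensory cells (ENSCs) were positive for CD326 only. Each population was taken from the cochlea and from the vestibular system, and each biological replicate pooled the inner ears of several mice. The table had 1 column for each of the 4 populations, so no value below has a replicate error and no p-value is given. Values are the quantile-normalized read signal of the deposited table, which is not divided by gene length and has a floor of 20. A gene was counted as higher or lower where 2 populations differed at least 3-fold in signal.

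The labels were checked against marker genes. The summed signal of 7 HC markers was 35597.75 in cochlear HCs and 30245 in vestibular HCs, against 1808.75 in cochlear ENSCs and 1407.25 in vestibular ENSCs. The gene of CD326, *Epcam*, read 1016.75 in cochlear HCs, 3376.25 in cochlear ENSCs, 1139.25 in vestibular HCs and 7511 in vestibular ENSCs, and the summed signal of the 5 epithelial markers was 8728.5, 9416.5, 2864.5 and 19118 in the same order. Between HC libraries *Cdh1* differed most (6003 in the cochlea against 178.5), while *Cdh2* (1538 against 1313.5), *Krt8* (24.25 against 60.75) and *Krt18* (146.5 against 172.5) did not drop in this way. *Cdh2* was higher in HCs than in ENSCs (510 and 586) of both organs. The summed signal of 9 genes of supporting and other non-sensory epithelium was 12247.75, 93669, 13820.75 and 23443 in the same order. These sums were closer between HCs and ENSCs in the vestibular system, but single genes weighed heavily in them. *Epyc* alone read 62028.5 in cochlear ENSCs, and *Otog* alone read 10905 in vestibular ENSCs. *Epyc*, *Tecta*, *Otogl* and *Otog* were higher in ENSCs of both organs. *Sox2* was higher in HCs of both organs (2659.5 against 2103.75 and 3960.75 against 465.75). So was *Lfng* (78 against 38.75 and 84.75 against 30.75). *Tectb* (2435.5 against 1507) and *Sparcl1* (4024.75 against 3930.75) were higher in HCs in the vestibular system only. The signal of *Hes5* was low throughout (20 to 42.25). Of 5 neuronal markers 4 were in the table, and their summed signal was 5687 in cochlear HCs, 196.75 in cochlear ENSCs, 6743 in vestibular HCs and 82.5 in vestibular ENSCs, so this list moved in the same direction as the HC markers. *Nefl*, *Nefm* and *Snap25* were at the floor in vestibular ENSCs. Of 4 glial markers 3 were in the table, with summed signals of 661, 504, 164.75 and 1263.5 in the same order, and of 5 mesenchymal markers 3 were in the table, with 90, 1696.25, 103.5 and 1010.25. Of 4 blood markers only *Cd68* was in the table (20 to 24.75), and none of 3 endothelial and 3 melanocyte markers was. The part of such cells in the results below was not tested. A lower signal from fewer expressing cells and from less RNA per cell cannot be told apart in sorted bulk populations.

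The genes lie on different chromosomes, and on the mm9 build all 6 are on the minus strand. *Ptprq* (chr10:106954416-107157083) has 46 merged exons and 7162 nt of exonic sequence. *Gpr98* (chr13:81234067-81772153) is the longest, with 95 merged exons and 24791 nt of exonic sequence. *Clrn1* (chr3:58647950-58689262) has 4 merged exons and 3857 nt. *Whrn* (chr4:63075944-63157025) has 18 and 7343 nt, *Pdzd7* (chr19:45101396-45121104) has 17 and 4124 nt, and *Ush1c* (chr7:53450720-53493873) has 28 and 3666 nt. They fall into separate ranges of base composition. The exonic GC content was 43.2% in *Ptprq*, 45.0% in *Gpr98* and 43.1% in *Clrn1*, below the median of all genes (48.8%), and 57.9% in *Whrn*, 57.9% in *Pdzd7* and 56.7% in *Ush1c*, above it.

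Promoter sequences are shown because the series concerns RFX transcription factors, and because the genes differ widely in their HC to ENSC ratios. Windows from 250 bases before to 50 bases after the transcription start were taken from RefSeq (build GRCm38.p6, all on the minus strand), which held 1 for each of 5 genes. *Ptprq* is named only. Both strands were searched for GTTGCC, which is an arm of the palindromic X-box bound by RFX factors, and for CAGCTG, an E-box of the kind bound by basic helix-loop-helix factors. Capitals mark a match. The promoters printed are those with a match (*Whrn*, chr4:63495942-63496241, and *Pdzd7*, chr19:45045723-45046022), that of *Clrn1* (chr3:58885163-58885462), which had the highest cochlear HC to ENSC ratio of the genes as deposited, and that of *Ush1c* (chr7:46238441-46238740), which had the lowest ratio in both organs as deposited. With a floor of 50, *Gpr98* (log2 ratio 5.23) was above *Clrn1* (4.72) in the cochlea, and *Whrn* (0.40) was below *Ush1c* (1.56).
Clrn1: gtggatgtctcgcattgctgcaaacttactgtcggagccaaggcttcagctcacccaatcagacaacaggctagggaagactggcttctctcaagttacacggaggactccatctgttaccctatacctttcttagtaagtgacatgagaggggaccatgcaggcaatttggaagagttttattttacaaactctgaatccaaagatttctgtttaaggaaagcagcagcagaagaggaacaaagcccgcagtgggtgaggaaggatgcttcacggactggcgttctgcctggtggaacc
Whrn: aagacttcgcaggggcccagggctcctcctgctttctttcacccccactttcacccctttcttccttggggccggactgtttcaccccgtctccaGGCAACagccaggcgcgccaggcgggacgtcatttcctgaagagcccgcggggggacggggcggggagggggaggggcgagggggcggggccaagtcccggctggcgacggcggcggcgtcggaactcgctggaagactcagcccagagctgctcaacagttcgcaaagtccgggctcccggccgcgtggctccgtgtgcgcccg
Pdzd7: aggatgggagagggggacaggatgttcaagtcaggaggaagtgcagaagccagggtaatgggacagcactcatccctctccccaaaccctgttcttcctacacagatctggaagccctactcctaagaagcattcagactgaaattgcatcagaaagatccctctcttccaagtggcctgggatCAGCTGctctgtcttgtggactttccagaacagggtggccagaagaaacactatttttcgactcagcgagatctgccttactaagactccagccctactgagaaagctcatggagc
Ush1c: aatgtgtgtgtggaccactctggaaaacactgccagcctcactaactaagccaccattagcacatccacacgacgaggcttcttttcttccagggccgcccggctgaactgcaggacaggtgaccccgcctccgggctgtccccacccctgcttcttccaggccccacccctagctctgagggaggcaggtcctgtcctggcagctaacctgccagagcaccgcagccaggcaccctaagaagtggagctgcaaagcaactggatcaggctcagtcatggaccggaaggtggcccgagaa

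The *Whrn* promoter held the RFX arm once, on the reverse strand (GGCAAC) and 155 bases before the start. The *Pdzd7* promoter held the E-box once, 66 bases before the start. Neither motif was found in the windows of *Gpr98*, *Clrn1* and *Ush1c*. No window held the whole X-box (the arm, AT, and the reverse complement of the arm) with at most 3 mismatches, and the best matches had 5 mismatches in *Gpr98*, *Clrn1*, *Pdzd7* and *Ush1c* and 6 in *Whrn*. Among 32851 promoters of the same length, 12.5% held the RFX arm, 16.3% the E-box and 3.37% the X-box with at most 3 mismatches. A match is a description of letters in the window and not evidence of binding.

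In the cochlea, 5 of the 6 genes passed the 3-fold threshold with the higher signal in HCs, against 8.39% of all genes. In the vestibular system, 4 of the 6 did so, against 13.8% of all genes. *Ptprq*, *Gpr98*, *Clrn1* and *Whrn* were higher in HCs of both organs, which held for 4.99% of all genes. None of the 6 was at least 3-fold lower in HCs, against 9.2% of all genes for cochlear cells and 14.3% for vestibular cells. The median log2 HC to ENSC ratio of the 6 genes was 3.58 for cochlear cells and 2.50 for vestibular cells, against 0 and -0.0045 over all genes. As deposited, *Ptprq*, *Gpr98* and *Clrn1* had larger ratios than the genes of the PDZ scaffold proteins in both organs, as the plot of signals in each library shows. After correction for exonic length and GC content (described below), the vestibular log2 ratio of *Gpr98* (2.94) was close to that of *Whrn* (2.75). With the floor raised to 50, *Whrn* no longer passed the threshold in either organ and *Pdzd7* no longer passed it in the cochlea, which left 3 genes there.

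**Figure D1:**
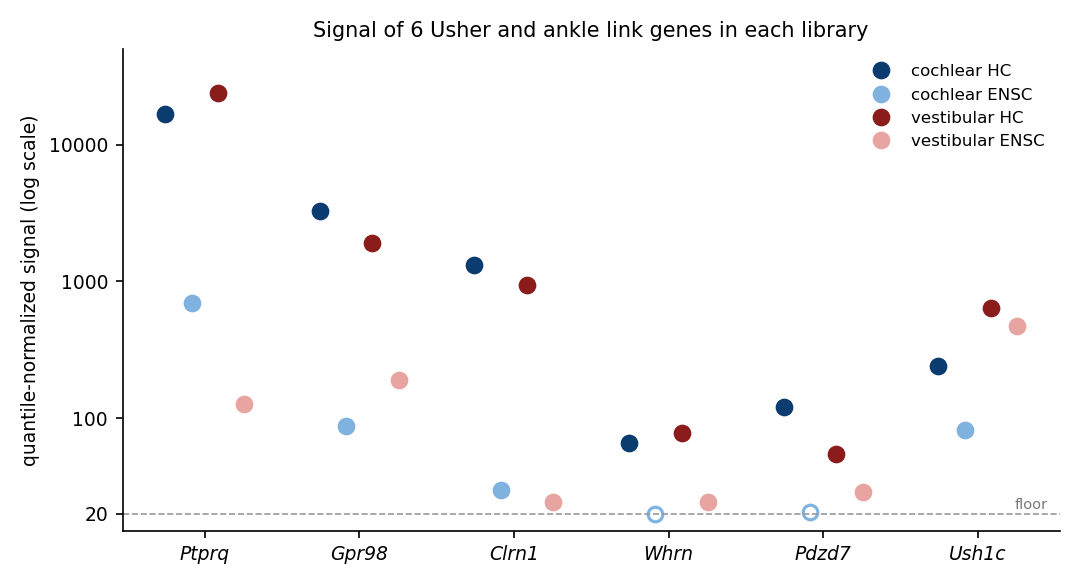
Quantile-normalized signal (log scale) of the 6 genes in the 4 libraries, 1 point per library, with the floor of 20 as a dashed line and open points for signals inside a library's tied low range. *Ptprq* reached 16850.75 and 23927 in HCs, whereas *Whrn* was at 66 and 77.5.

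*Ptprq* codes for a receptor-like phosphatase of the shaft connectors, which link stereocilia above the ankle links. Its signal was 16850.75 in cochlear HCs, 692.25 in cochlear ENSCs, 23927 in vestibular HCs and 126.5 in vestibular ENSCs. Both HC libraries were far above both ENSC libraries, and the ENSC libraries were themselves apart. The HC signal was 24.3-fold the ENSC signal in the cochlea (log2 ratio 4.61) and 189-fold in the vestibular system (log2 ratio 7.56). With a pseudocount of 100 the log2 ratios were 4.42 and 6.73. The vestibular ratio was the 9th highest of 12814 genes and the cochlear ratio the 74th highest. The HC levels differed 1.42-fold between organs, but the ENSC level was 5.47-fold higher in the cochlea, past the threshold. *Ptprq* was above 99.8% of genes in cochlear HCs and above 83.0% in cochlear ENSCs.

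*Gpr98* codes for the very large adhesion G protein-coupled receptor that forms part of the ankle link itself. Its signal was 3285.25 in cochlear HCs, 87.5 in cochlear ENSCs, 1913.75 in vestibular HCs and 191.5 in vestibular ENSCs. The order of the organs was reversed between the populations, with the higher HC level in the cochlea and the higher ENSC level in the vestibular system. The HC to ENSC ratio was 37.5-fold in the cochlea (log2 ratio 5.23, 40th highest) and 9.99-fold in the vestibular system (log2 ratio 3.32, 406th highest). With a pseudocount of 100 the log2 ratios were 4.17 and 2.79. A long intergenic RNA, *9330111N05Rik*, lies inside the span of *Gpr98* on the opposite strand without sharing exonic sequence, and read 85.25, 20, 21.5 and 20 in the order used above.

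*Clrn1* codes for clarin 1, a small membrane protein with several transmembrane segments, and is mutated in Usher syndrome. Its signal was 1316.5 in cochlear HCs, 29.75 in cochlear ENSCs, 938.25 in vestibular HCs and 24.5 in vestibular ENSCs. It was the gene with the most similar pattern in both organs among those with high ratios. The ratio was 44.3-fold in the cochlea (log2 ratio 5.47, 25th highest) and 38.3-fold in the vestibular system (log2 ratio 5.26, 88th highest). Both ENSC signals were near the floor, and with a floor of 50 the log2 ratios were 4.72 and 4.23, and with a pseudocount of 100 they were 3.45 and 3.06. Between organs, *Clrn1* differed 1.40-fold in HCs and 1.21-fold in ENSCs.

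*Whrn* codes for whirlin, a PDZ scaffold found at the ankle links and at the tips of stereocilia. Its signal was 66 in cochlear HCs, 20 in cochlear ENSCs, 77.5 in vestibular HCs and 24.25 in vestibular ENSCs. Per kb of merged exons it was the lowest of the 6 genes in both HC libraries, but in vestibular HCs this did not hold for the undivided signal or per kb of the longest transcript. It lay just inside the threshold, at 3.30-fold in the cochlea and 3.20-fold in the vestibular system. Its cochlear ENSC signal was in the low range where ranks are tied (up to 22.75 in that library), and against the top of that range the ratio was 2.90-fold, just outside the threshold.

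*Pdzd7* codes for a relative of whirlin and harmonin that is part of the ankle link complex. Its signal was 121.25 in cochlear HCs, 20.5 in cochlear ENSCs, 55 in vestibular HCs and 28.75 in vestibular ENSCs. Cochlear HCs were the highest library, and the lowest was cochlear ENSCs, which lay almost at the floor. The ratio was 5.91-fold in the cochlea (5.33-fold against the top of the tied range) and 1.91-fold in the vestibular system, which did not reach the threshold. The HC level was 2.20-fold higher in the cochlea. *Pdzd7* shares 199 nt of exonic sequence with *Lzts2* on the opposite strand. The strand setting of the counting is not stated, so that reads from this stretch cannot be told apart, and *Lzts2* read 20.25, 20, 22 and 70.

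*Ush1c* codes for harmonin, the PDZ scaffold that anchors the tip link. Its signal was 240 in cochlear HCs, 81.25 in cochlear ENSCs, 641.75 in vestibular HCs and 471.75 in vestibular ENSCs. It was the only one of the 6 genes with both vestibular libraries above both cochlear libraries. The HC to ENSC ratio was 2.95-fold in the cochlea, just outside the threshold, and 1.36-fold in the vestibular system. The ENSC signal was 5.81-fold lower in the cochlea than in the vestibular system, past the threshold, and the HC signal was 2.67-fold lower. *Otog*, which codes for otogelin of the acellular membranes that cover the sensory epithelia, starts or ends 2483 nt from *Ush1c* on the opposite strand and shares no exonic sequence with it. *Otog* read 899.5, 1432.75, 1857 and 10905 in the same order.

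Levels were compared between genes as signal per kb of exonic sequence. In cochlear HCs *Ptprq* was highest at 2353 per kb, followed by *Clrn1* at 341, *Gpr98* at 133, *Ush1c* at 65.5, *Pdzd7* at 29.4 and *Whrn* at 8.99. In vestibular HCs *Ptprq* was again highest at 3341 per kb and *Clrn1* next at 243, but *Ush1c* (175) was above *Gpr98* (77.2), followed by *Pdzd7* (13.3) and *Whrn* (10.6). In vestibular ENSCs *Ush1c* was highest at 129 per kb, and the other 5 genes lay between 3.30 and 17.7. Without replicates it cannot be said which neighbours in these orders differ beyond their spread. With the longest transcript in place of all exons, the order was the same in cochlear HCs, but in vestibular HCs *Whrn* (19.1 per kb) was above *Pdzd7* (13.5).

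The ratios in both organs were then set side by side for each gene. The vestibular log2 ratio exceeded the cochlear one by 2.96 in *Ptprq*, and 97.8% of all genes had a lower difference. It was below the cochlear ratio in *Gpr98* (a difference of -1.91), *Pdzd7* (-1.63) and *Ush1c* (-1.12). In *Clrn1* it was -0.21 and in *Whrn* -0.05. A difference of over 1 log2 unit was seen in 4 of the 6 genes, and in 41.4% of all genes. After correction for exonic length and GC content it was seen in 2 of the 6, *Ptprq* (2.55) and *Gpr98* (-2.02), and in 35.9% of all genes. The corrected difference was -0.63 in *Pdzd7*, -0.21 in *Ush1c*, -0.67 in *Clrn1* and 0.995 in *Whrn*, so that only *Ptprq* and *Gpr98* were more than 1 unit apart both with and without the correction.

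**Figure D2:**
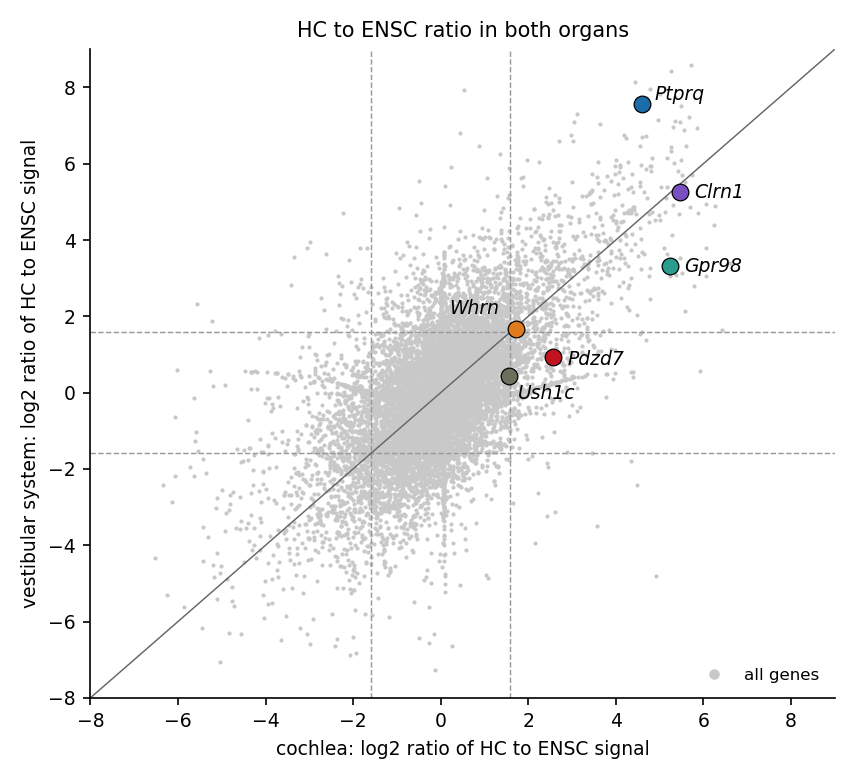
Log2 ratio of HC to ENSC signal in the cochlea (x axis) and the vestibular system (y axis) for all 12814 genes (grey) and the 6 genes (coloured), with dashed lines at 3-fold and a solid line of equal ratios. *Ptprq* lies above the line of equal ratios, *Gpr98*, *Pdzd7* and *Ush1c* lie below it, and *Clrn1* and *Whrn* lie near it.

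Between organs, none of the 6 genes was at least 3-fold apart in HCs, against 9.3% of all genes (4.21% higher and 5.09% lower in the cochlea). In ENSCs 2 of the 6 were, against 15.7% of all genes. *Ptprq* was higher in the cochlea, as were 7.8% of all genes, and *Ush1c* was lower, as were 7.94%. After correction for exonic length and GC content the log2 ratio of cochlear to vestibular ENSC signal was 1.96 for *Ptprq* (2.45 as deposited) and -1.82 for *Ush1c* (-2.54), both still past the threshold. The median log2 ratio of cochlear to vestibular signal was 0.13 in HCs and -0.38 in ENSCs, against 0 and 0 over all genes. These contrasts use the same 4 libraries as the HC to ENSC ratios and are not independent of them.

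The signal left in ENSCs was also expressed as a percentage of the HC signal in the same organ, a measure chosen after values were seen, and set beside the 7 HC markers. In cochlear ENSCs *Gpr98* was at 2.66% and *Ptprq* at 4.11% of the HC level, within the range of the markers (2.51% to 25.2%, median 3.78%), and *Clrn1* was just below that range at 2.26%. *Pdzd7* was at 16.9%, with its ENSC signal in the tied range. *Ush1c* was at 33.9%, above the highest marker. *Whrn* was at 30.3%, but its ENSC signal and that of the highest marker, *Lhx3*, were both at the floor, so that both percentages are upper limits and their order is not informative. In vestibular ENSCs *Ptprq* was at 0.529% and *Clrn1* at 2.61%, while the markers ranged from 0.532% to 18.6% with a median of 3.97%. *Gpr98* was at 10.01%, above *Myo6* (5.86%), the only marker whose ENSC signal was well above the floor. *Otof* (0.532%) read 20.25 in vestibular ENSCs, almost at the floor. *Whrn* was at 31.3%, *Pdzd7* at 52.3% and *Ush1c* at 73.5%. *Ush1c* was thus above the highest marker here too. For *Whrn* and *Pdzd7* the position relative to the markers is not informative, because their HC signals are so low that even an ENSC signal at the floor would exceed the highest marker percentage. Of the 7 markers, 5 were at the floor in vestibular ENSCs, and their percentages are upper limits.

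**Figure D3:**
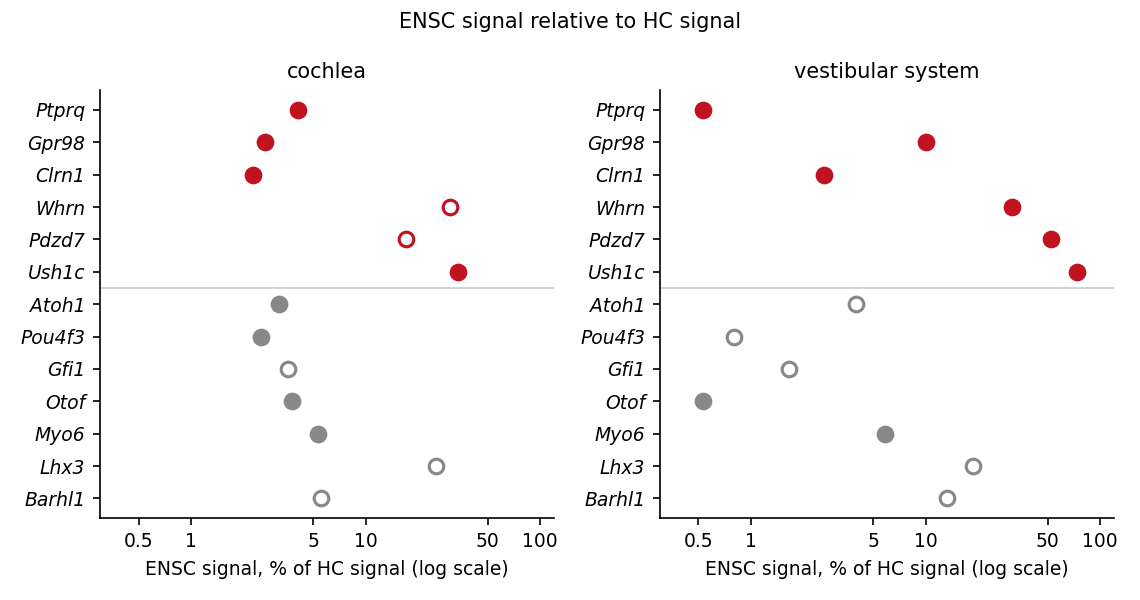
ENSC signal as a percentage of HC signal (log scale) in the cochlea and the vestibular system, for the 6 genes (red) and 7 HC markers (grey), with open points where the ENSC signal was in the tied low range. *Ush1c* was at 33.9% and 73.5%, and the median marker at 3.78% and 3.97%.

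Base composition moved with the vestibular ratios and with the ENSC ratios between organs. Over the 10358 genes with both signals above the floor, Spearman's rho between GC content and the HC to ENSC log2 ratio was -0.395 in the vestibular system, against -0.0400 over 10722 genes in the cochlea. For the ratio of cochlear to vestibular signal it was -0.453 in ENSCs and 0.0215 in HCs. These are descriptions across genes, which are not independent replicates and share the same libraries. The 526 genes within the GC range of the scaffold genes (56.7% to 57.9%) had a median vestibular log2 ratio of -0.98, and the 1250 genes within the range of *Ptprq*, *Gpr98* and *Clrn1* (43.1% to 45.0%) had a median of 0.46. After correction for exonic length and GC content the vestibular log2 ratio was 2.03 for *Pdzd7*, now past the threshold (1.58), 2.75 for *Whrn* and 1.46 for *Ush1c*, and it was 7.05 for *Ptprq*, 2.94 for *Gpr98* and 4.77 for *Clrn1*. In the cochlea the corrected ratio of *Ush1c* was 1.67, also past the threshold. The part of GC content in the organ difference was not otherwise tested.

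**Figure D4:**
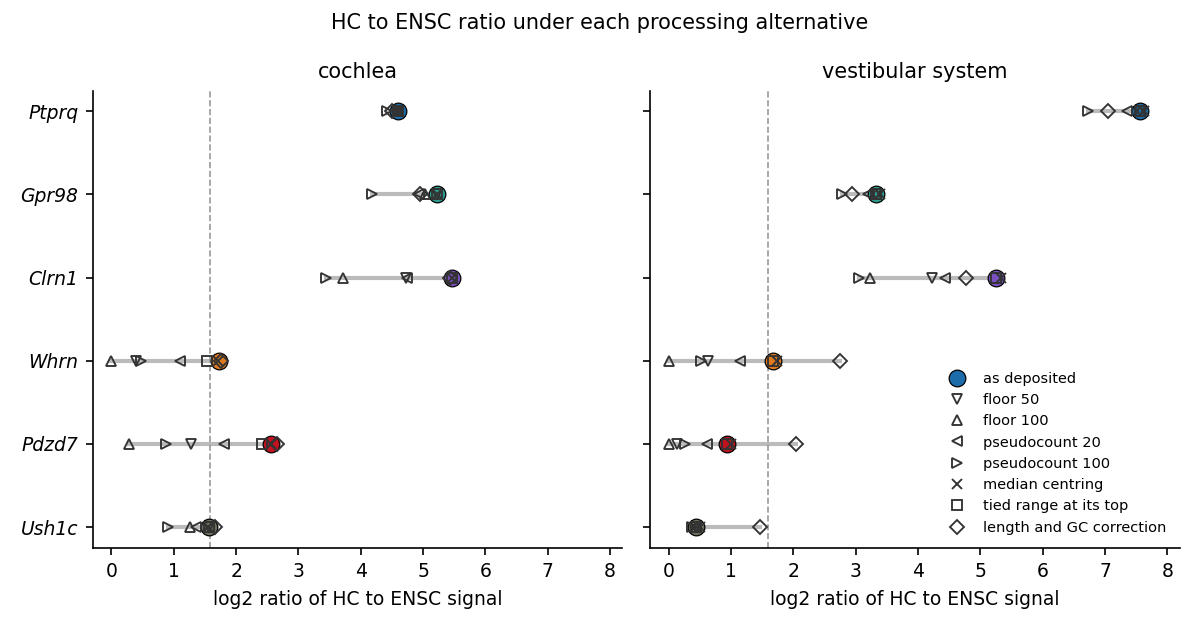
Log2 ratio of HC to ENSC signal of each gene as deposited (filled circles) and under the processing alternatives (open symbols and crosses), with the 3-fold threshold as a dashed line. *Ptprq*, *Gpr98* and *Clrn1* stay past the threshold under every alternative drawn, whereas with the floor raised to 50 *Whrn* falls below it in both organs and *Pdzd7* in the cochlea, being below it in the vestibular system as deposited.

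The genes with the most similar patterns were sought among 8732 protein-coding genes by the Euclidean distance between centred log2 signals over the 4 libraries. For *Ptprq* the nearest was *Rbm24*, an RNA-binding protein gene, at a distance of 0.14, followed by *Sh2d4b* (0.37) and *Myo3b*, an unconventional myosin (0.46). For *Clrn1* they were *4922501L14Rik* (0.21), *Scg3* (0.26), which codes for a secretogranin, and *Grxcr1* (0.31), which is needed for stereocilia development. For *Gpr98* the nearest, *Casz1*, a zinc finger transcription factor gene, was at 0.60, followed by *Slc52a3* (0.65) and *Nfkbib* (0.68). For *Pdzd7* the nearest were *Rab6b* (0.16), *Gm20696* (0.28) and *Pfkp* (0.33), and for *Ush1c* they were *Mtap1a* (0.21), *Atp5g1* (0.29) and *Armcx3* (0.42). *Whrn* did not reach the minimum signal of 100 for this search. Several of these distances rest on signals at or near the floor and are not exact. In vestibular ENSCs *Rbm24*, *Scg3* and *Grxcr1* read 20, *Myo3b* 20.25 and *Sh2d4b* 21.75. In cochlear ENSCs *Scg3* and *Grxcr1* (22.5 each) and *Gm20696* (20.5) were in the tied low range. Within the group, *Whrn* and *Pdzd7* were the closest pair (0.98) and *Ptprq* and *Ush1c* the farthest (6.22).

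Other genes of the same pathway were counted from lists. The 4 other Usher syndrome genes reported here were all at least 3-fold higher in HCs of both organs, against 4.99% of all genes. *Myo7a*, the motor of the Usher complex, had a log2 ratio of 5.60 in cochlear cells and 6.46 in vestibular cells. Its vestibular ENSC signal was at the floor (20), so 6.46 is a lower limit. The calcium-binding protein gene *Cib2* had ratios of 4.57 and 3.24. The ratios of the tip link cadherin genes were 2.61 and 1.94 for *Cdh23* and 2.22 and 4.35 for *Pcdh15*. Of 7 genes listed for tip links and transduction, which also include both cadherins, 6 were higher and none was lower in each organ. Of all genes, 8.39% were higher in the cochlea and 13.8% for vestibular cells. The exception was *Lhfp*, a different gene from *Lhfpl5* of the same list, and its place among transduction genes was not examined.

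Of the other ankle link genes, neither *Vezt*, which codes for vezatin, nor *Adcy6*, an adenylyl cyclase gene, was higher in HCs of either organ. *Adcy6* was lower in vestibular HCs, with a log2 ratio of -1.83. Of 9 genes listed as partners of the Usher complex, 3 were higher and 1 was lower in cochlear HCs, and 3 were higher and none was lower in vestibular HCs. Of all genes, 8.39% were higher and 9.2% lower in cochlear HCs, and 13.8% were higher and 14.3% lower in vestibular HCs. *Myo15*, the motor that carries whirlin to stereocilia tips, had log2 ratios of 4.69 and 5.87, and *Espn*, an actin bundling protein gene, had 2.87 and 2.50. Both genes were at the floor in vestibular ENSCs (20), so their vestibular ratios are lower limits. The cochlear ENSC signal of *Espn* (21) was in the tied low range. *Eps8l2* passed the threshold in the cochlea only (3.20 against 1.51) and *Gpsm2* in the vestibular system only (1.32 against 2.62), differences that were not tested. The cochlear ENSC signal of *Eps8l2* (21.5) was in the tied low range, and its vestibular ratio fell just short of the threshold. *Mpp1*, a scaffold of the guanylate kinase family, was lower in cochlear HCs (-1.88), and its vestibular log2 ratio of -1.58 fell just short of the threshold.

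Relatives of the surface proteins were counted in the same way. Of 20 other adhesion G protein-coupled receptor genes 12 were in the table, of which 2 were higher and 3 lower in cochlear HCs and 2 were higher and 2 lower in vestibular HCs. The shares of all genes were 8.39% higher and 9.2% lower for cochlear cells, and 13.8% and 14.3% for vestibular cells. *Celsr3*, a planar cell polarity receptor gene, was higher in both (log2 ratios 2.50 and 3.11). Its ENSC signal was in the tied low range in the cochlea (20.75). It was at the floor in the vestibular system (20), where the ratio is a lower limit. Of 4 receptor phosphatases listed only *Ptprj* was in the table, where it read 396.5, 140.25, 314.75 and 559.5 without passing the threshold in either organ. Of 2 other clarins only *Clrn2* was in the table, which was at the floor in all libraries except vestibular HCs (47.5). None of the 4 listed genes of the gut brush border complex had a row.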

How the data were processed

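The labels give 4 samples of sorted mouse inner ear cells, 1 per population. Per the study's methods, the authors amplified total RNA with the NuGEN Ovation system (the labels name polyA RNA as the molecule), trimmed reads to 50 nt and aligned them to mm9 by TopHat. Counts for ENSEMBL genes came from HTSeq, and quantile normalization and a floor of 20 followed. Tool versions, the annotation release and the strand setting are not given in the sources used here. The deposited value is therefore a signal per gene, not a count. All 4 columns hold identical sorted values (sum 7830343, median 120), so sequencing depth is unknown, differences in total RNA cannot be seen and no counting interval can be given. The design text speaks of triplicates, but replicates had no columns of their own. Columns named Non.HC were matched by organ to the ENSC samples.

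Log2 ratios of the deposited signals were computed without a pseudocount, and a ratio of at least 3 was counted. The members of the group are all named where they had a row. Other pathway genes were counted from lists, and likeness was the Euclidean distance over 4 libraries to the 3 nearest protein-coding genes that reached a signal of 100. The members and lists were chosen with earlier results of these data known. One further gene of the list of other Usher syndrome genes is not reported here and does not enter its counts, which are over part of that list. The tied low range of a library is the range in which the rank of genes carries no information. Its top was 24.25 in cochlear HCs, 22.75 in cochlear ENSCs, 30.5 in vestibular HCs and 20 in vestibular ENSCs, by criteria set after low values were looked at and with earlier tops known. The percentages of ENSC to HC signal, the GC ranges and the neighbouring genes were also chosen after values were seen. Positions, exonic length and GC content came from GENCODE M1 on NCBIM37, which is mm9 (12799 of 12814 identifiers matched), and promoters from RefSeq on GRCm38.p6, with promoters of 1 chromosome left out of the motif shares. Trends on length and GC content were removed by local regression over 0.3 of the genes with 2 iterations. The alternatives were floors of 50 and 100, pseudocounts of 20 and 100, median centring, thresholds of 2-fold and 5-fold, the tied range set to its top, the length and GC correction and, for counts over all genes, protein-coding genes only or genes that reached a signal of 100. Scripts were tested on simulated data and used Python 3.11.15, pandas 2.3.3, numpy 2.4.6, scipy 1.17.1, statsmodels 0.14.6 and matplotlib 3.10.9.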

Additional observations from a re-analysis of the deposited data

Results flagged for a closer look

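In the deposited signals, the organ difference of 3 genes had opposite signs in HCs and in ENSCs. *Ptprq* was lower in the cochlea in HCs (log2 ratio of cochlear to vestibular signal -0.51) and higher in ENSCs (2.45), and the HC value minus the ENSC value was -2.96. *Gpr98* was higher in the cochlea in HCs (0.78) and lower in ENSCs (-1.13), a difference of 1.91. *Pdzd7* was higher in HCs (1.14) and lower in ENSCs (-0.49), a difference of 1.63, and its cochlear ENSC signal was in the tied low range. With 1 library per population these differences were not tested. Opposite signs were also seen in 38.7% of all genes. After the length and GC correction *Ptprq* and *Gpr98* still had opposite signs, *Pdzd7* no longer did (1.01 in HCs and 0.32 in ENSCs), and *Clrn1* (0.47 and -0.25) and *Whrn* (-0.36 and 0.55) then did.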

How the results depend on the processing

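The count of 5 genes at least 3-fold higher in cochlear HCs was 3 with a floor of 50, 3 with a floor of 100 and 3 with a pseudocount of 100. *Ptprq*, *Gpr98* and *Clrn1* remained and *Whrn* and *Pdzd7* were lost, since both have signals near the floor. Under the other alternatives this count was 4 to 6. The count of 4 genes in vestibular HCs was 3 with either floor, either pseudocount or a threshold of 5-fold, *Whrn* being lost, 5 with the length and GC correction, which added *Pdzd7*, and 4 otherwise. The count of 0 genes at least 3-fold apart between organs in HCs was 2 at a threshold of 2-fold (*Pdzd7* and *Ush1c*), where 2690 of all 12814 genes also passed. Of 168 log2 ratios of single genes under 7 alternatives, 154 stayed on their side of the threshold, 12 fell below it and 2 passed it. The sign was kept in 155, and 10 became 0 because both signals fell to a raised floor. The sign turned in 3, all ratios of cochlear to vestibular ENSC signal below the threshold under the length and GC correction: *Clrn1* (0.28 to -0.25), *Whrn* (-0.28 to 0.55) and *Pdzd7* (-0.49 to 0.32). With the tied range at its top, the cochlear log2 ratio of *Whrn* was 1.54, below the threshold. Over all alternatives, all genes at least 3-fold higher in HCs numbered 394 to 2110 in the cochlea (1075 as deposited) and 672 to 3017 in the vestibular system (1762), and all genes at least 3-fold apart between organs numbered 278 to 2690 in HCs (1192) and 659 to 4426 in ENSCs (2017). No paired analysis was possible because the table has 1 column per population and no replicate numbers. Leaving out a replicate was not possible for the same reason. Quantile normalization removes depth, so that low signals such as those of *Whrn* and *Pdzd7* cannot be given a counting error.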
